A study of Mus musculus with 4 samples.

Results

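Cells make nucleotides either from small precursors, by the de novo pathways, or by salvage of bases and nucleosides. The 10 genes described here encode the de novo enzymes. Ppat, Gart, Pfas, Paics, Adsl and Atic build inosine monophosphate (IMP), the purine nucleotide from which AMP and GMP are made, on phosphoribosyl pyrophosphate (PRPP). Cad, Dhodh and Umps build uridine monophosphate, and Ctps, now named Ctps1, turns UTP into CTP. These enzymes take nitrogen from glutamine, aspartate and glycine and one-carbon units from folate, and rapidly dividing cells such as mouse embryonic stem cells (mESCs) are known for a high demand on them. The genes were chosen by name, as members of the pathways, and all 10 were found among the 37620 gene rows of the count table.

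RNA-seq compared 2 WT_CTCF with 2 MUT_CTCF mESC libraries, to ask whether loss of O-GlcNAc on the chromatin protein CTCF changes gene expression. Both lines came from mESCs in which the endogenous CTCF carried EGFP and an auxin-inducible degron and was degraded by auxin, and in both CTCF was supplied from a vector selected with hygromycin, as the wild-type protein in WT_CTCF cells and with its T668 residue replaced in MUT_CTCF cells, so that this site cannot carry O-GlcNAc. Each line was 1 picked clone whose exogenous CTCF was close to the endogenous level. All cells grew in serum and LIF, in medium with 2 mM L-glutamine and 1% nucleoside mix, so nucleosides for salvage were supplied to both lines. The libraries are described as biological replicates of 1 clone per line, and the clone and the mutation therefore cannot be told apart.

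The libraries were of nearly equal depth, from 40524694 to 40977464 counts. Ctcf itself had 18273 and 18625 counts in WT_CTCF and 18954 and 19233 in MUT_CTCF mESCs, which does not check the mutation because gene counts do not show the residue. The 8 embryonic stem cell markers, Pou5f1 and Nanog among them, had 11676 to 60629 counts per library. In MUT_CTCF cells 1 was called higher, Sox2 (log2 fold change 0.095, adjusted p = 0.0358), and 1 lower, Dppa5a (-0.099, adjusted p = 0.0157). These 2 were 25% of the 8, where 3.17% of all tested genes were called, and 7.9% of the 3672 genes with at least the mean count of Dhodh. The 6 fibroblast markers summed to 1853 and 1912 counts in WT_CTCF and 1907 and 2104 in MUT_CTCF libraries, with Postn at 0 to 4 counts. None of the 5 tested fibroblast markers was called, and 3 had log2 fold changes above 0. Col3a1 had 26 and 23 counts in WT_CTCF and 12 and 5 in MUT_CTCF libraries (log2 fold change -1.5, adjusted p = 0.288). It was the 1 fibroblast marker at the study's criterion, an unadjusted p under 0.05 and more than a 2-fold change. Of all tested genes, 1.3% passed that criterion. The differentiated lineage markers found in the table, 8 in number, summed to 3126 and 3138 in WT_CTCF and 3400 and 3516 in MUT_CTCF libraries, mostly from Nes. Of these markers, named after their values were seen, Gata6 had 57 and 50 counts in WT_CTCF and 99 and 108 in MUT_CTCF libraries, and Sox17 had 57 and 46 against 66 and 108 (adjusted p = 0.0733 and 0.259). None of the 7 tested lineage markers was called, and 6 of them had log2 fold changes above 0. T went the other way, at -0.066 (adjusted p = 0.911). Foxa2, with too few counts to test, had 5 and 7 counts in WT_CTCF and 2 and 0 in MUT_CTCF libraries. The part of these markers in the values below was not tested. The comparison was tested with the quasi-likelihood test of edgeR over the 16264 genes with enough counts, with p-values adjusted over all of them by the Benjamini-Hochberg method. Genes with an adjusted p under 0.05 are named as called, and normalized counts are counts scaled by TMM to the mean library.

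The start regions were read first, because CTCF binds DNA and because 2 of the genes share a start region. Ppat and Paics lie head to head on chromosome 5, with RefSeq start sites 276 bases apart and first exons that overlap. RefSeq promoter windows (GRCm38.p6, from 250 bases before to 50 after the start) were held for 8 of the 10 genes, in 9 windows, and not for Pfas and Dhodh. Capitals mark CACGTG, the E-box bound by MYC and related factors, and GGGCGG, the GC box bound by SP1 family factors, on either strand, and each sequence runs 5′ to 3′ along its gene. The 250 bases before the start are shown for Atic, which holds both motifs, and for Gart, which had the smallest p of the 10 genes. For Paics, 30 bases around its E-box are shown.
Atic (chr1:71556906-71557155, plus strand): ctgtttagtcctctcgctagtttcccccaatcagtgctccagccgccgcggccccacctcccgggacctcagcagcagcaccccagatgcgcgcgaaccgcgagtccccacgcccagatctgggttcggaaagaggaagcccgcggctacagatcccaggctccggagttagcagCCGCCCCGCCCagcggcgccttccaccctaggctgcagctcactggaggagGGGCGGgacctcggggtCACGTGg
Gart (chr16:91646973-91647222, minus strand): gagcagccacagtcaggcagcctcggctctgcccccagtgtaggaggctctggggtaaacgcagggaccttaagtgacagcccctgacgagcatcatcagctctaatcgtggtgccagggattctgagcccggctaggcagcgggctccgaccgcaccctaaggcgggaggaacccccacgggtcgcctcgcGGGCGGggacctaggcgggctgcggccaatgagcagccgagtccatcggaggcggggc
Paics (chr5:76951087-76951116, plus strand): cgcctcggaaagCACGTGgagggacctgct
CACGTG was found in the windows of Paics, at position -203 from the start, and Atic, at position -7, and in 7.15% of all 32851 windows. GGGCGG was found in 8 of the 9 windows, against 35.7% of all windows, and was absent only from the second Ctps window. Atic held 3, of which 2 share a base. CCAAT, the box bound by NF-Y, was in the 3 windows of Atic, Paics and Gart, against 37.4% of all windows. The core letters of the CTCF motif, searched as AGGGGGC and as AGGTGGC on both strands, were in none of the 9 windows and in 10.6% and 6.15% of all windows. These matches describe letters in a window and not bound sites. The G and C content of the 9 windows was highest in Atic, with 69.7%, against a mean of 53.8% over all windows. It was under that mean in Umps, with 53.0%, and in the second Ctps window, the lowest of the 9.

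None of the 10 de novo genes was called, where 3.17% of all tested genes were, 1.56% as higher and 1.61% as lower in MUT_CTCF mESCs. Their log2 fold changes of MUT_CTCF over WT_CTCF lay between -0.049 and 0.069, with a median of 0.00056 beside 0.0034 for all tested genes. The median was -0.0091 over the 6 purine genes and 0.0066 over the 4 pyrimidine genes, and 5 of the 10 values were above 0. In bulk RNA, fewer cells that express a gene and less RNA per cell cannot be told apart. Each 95% interval, taken gene by gene, stayed within a change of -9.19% to 9.43%. These intervals use a spread estimated in part from all tested genes, and not from the libraries of each gene alone. The log2 fold change of Ctps was 0.097 without WT_CTCF replicate 1 and -0.078 without replicate 2, outside its interval of -0.073 to 0.088. At an unadjusted p under 0.05, 2 genes passed, Gart and Pfas, where 15.3% of all tested genes did. DESeq2 called 0 of the 10 genes, with 2 at an unadjusted p under 0.05, and the exact test of edgeR gave 0 and 1. Over all 16264 tested genes, DESeq2 called 302 and the exact test 517. The study's methods call a gene by an unadjusted p under 0.05 and more than a 2-fold change, and 0 of the 10 passed this, where 1.3% of all tested genes did.

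**Figure D1:**
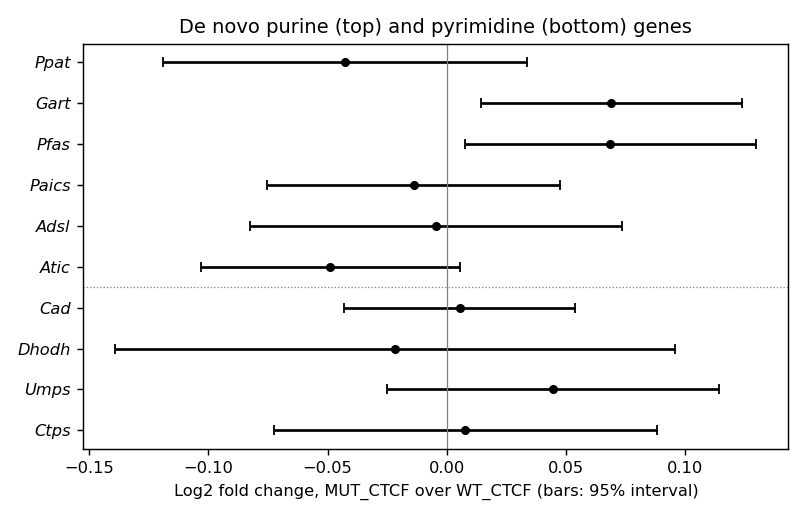
Log2 fold change of MUT_CTCF over WT_CTCF mESCs for each gene (points), with the 95% interval from the edgeR fit (bars, 2 libraries per line), purine genes above and pyrimidine genes below the dotted line. All points lie between -0.049 and 0.069, and the intervals of Gart and Pfas alone leave out 0 before adjustment.

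All 10 genes were well above the limits of detection, with 2338 to 35570 counts per library. Together they took 0.342% and 0.340% of all counts in WT_CTCF and 0.349% and 0.344% in MUT_CTCF libraries, so that the groups did not overlap. Scaled by library (CPM, with TMM) and by exon length, their summed level was 698.2 ± 7.83 CPM per kilobase in WT_CTCF and 703.4 ± 7.54 in MUT_CTCF mESCs (SD, n = 2), with overlapping groups. The purine genes had 1.59 counts for each count of the pyrimidine genes in both lines (SD 0.0093 in WT_CTCF and 0.026 in MUT_CTCF, n = 2).

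Levels per length, as CPM per kilobase of the union of exons over the 4 libraries, spanned 14.0-fold. Gart was highest with 133.5 ± 4.06 (SD, n = 4), followed by Paics with 118.6 ± 3.08, Cad with 106.0 ± 0.762 and Atic with 97.2 ± 2.05. Umps had 62.8 ± 1.27 and Ctps 55.2 ± 2.73. Pfas, Ppat and Adsl had 43.1 ± 1.31, 38.8 ± 1.07 and 36.1 ± 0.553. Dhodh was lowest with 9.55 ± 0.410, or 3.78-fold under Adsl. The 4 libraries kept this order, and no 2 neighbours in it overlapped in their ranges. The order rests on the gene models: with the length of the longest transcript, 8 of the 10 places changed and Atic came first, while Gart, Paics, Cad and Atic were still the first 4, Pfas the seventh and Dhodh the last.

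**Figure D2:**
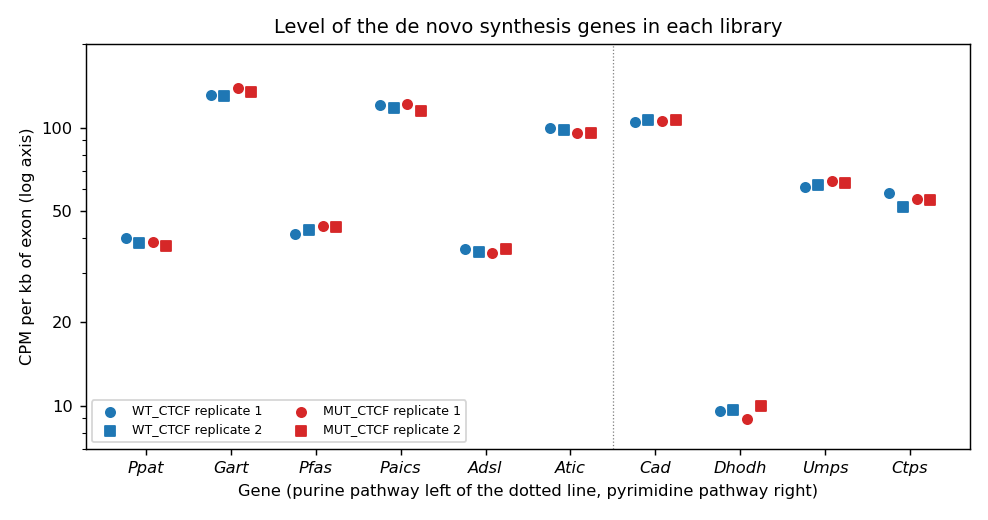
Level of each gene in each library, as CPM per kilobase of exon on a log axis, with WT_CTCF in blue and MUT_CTCF in red. The points of a gene lie close together, from about 9.55 for Dhodh to 133.5 for Gart.

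Ppat (ENSMUSG00000029246, chr5:77342274-77380603 on the minus strand in mm9) encodes the amidotransferase of the first committed purine step, which uses glutamine. It had 7236 and 6950.3 normalized counts in WT_CTCF libraries against 7002 and 6770.3 in MUT_CTCF libraries. The lines overlapped, at 7093 ± 202 and 6886 ± 164 (SD, n = 2), and the log2 fold change was -0.043 with a standard error of 0.038 (adjusted p = 0.671). Ppat and Paics share 272 exon bases on opposite strands at their start region. The sources used here do not name the strand setting of the counting, so how reads from those bases were counted is not known.

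Paics (ENSMUSG00000029247, chr5:77380332-77396534 on the plus strand in mm9) encodes the enzyme that carboxylates the purine intermediate and then adds aspartate to it. Its libraries had 15470.5 and 15047 normalized counts in WT_CTCF and 15534 and 14691 in MUT_CTCF mESCs. One MUT_CTCF library was the highest and the other the lowest of the 4. The log2 fold change was -0.014 with a standard error of 0.031 (adjusted p = 0.897). The level of Paics per length was 3.03 ± 0.027 times that of Ppat in WT_CTCF and 3.09 ± 0.048 in MUT_CTCF mESCs (SD, n = 2). Both MUT_CTCF ratios lay above both WT_CTCF ratios, with a two-sided exact permutation p of 0.333, the smallest that 2 libraries against 2 can give.

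Gart (ENSMUSG00000022962, chr16:91621431-91647197 on the minus strand in mm9) encodes a protein that joins several activities, among them the transfer of a formyl group from folate. It had 21296 and 21126.5 normalized counts in WT_CTCF libraries against 22577 and 21928 in MUT_CTCF libraries. Both MUT_CTCF libraries were the higher ones, with means of 22252 ± 459 and 21211 ± 119.7 (SD, n = 2). The log2 fold change of 0.069 had a standard error of 0.027 and a 95% interval of 0.014 to 0.12, and it did not pass after adjustment (adjusted p = 0.182). Gart shares 676 exon bases with Gm15964, a lincRNA on the opposite strand, which had 195 to 245 counts.

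Pfas (ENSMUSG00000020899, chr11:68799199-68824788 on the minus strand in mm9) encodes the glutamine-using enzyme that follows the formyl transfer. Its normalized counts were 13429 and 13843 in WT_CTCF and 14368 and 14236 in MUT_CTCF libraries. The groups did not overlap, and the log2 fold change of 0.069 was close to that of Gart in size, with a standard error of 0.031 and a 95% interval of 0.0075 to 0.13. It did not pass after adjustment (adjusted p = 0.262).

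Adsl (ENSMUSG00000022407, chr15:80778920-80801377 on the plus strand in mm9) encodes the lyase that releases fumarate after the Paics step and again on the way from IMP to AMP. It had 6543 and 6425 normalized counts in WT_CTCF and 6359.7 and 6570.3 in MUT_CTCF libraries, with the WT_CTCF values between those of the MUT_CTCF libraries. Its log2 fold change was -0.0043 with a standard error of 0.039 (adjusted p = 0.976).

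Atic (ENSMUSG00000026192, chr1:71603724-71626205 on the plus strand in mm9) encodes the enzyme of the closing steps to IMP, in which a second formyl group is taken from folate. Its normalized counts were 22428 and 22011 in WT_CTCF and 21450.4 and 21511 in MUT_CTCF libraries. Atic was the one gene of the 10 whose MUT_CTCF libraries were both the lower ones. The log2 fold change of -0.049 had a standard error of 0.027 and a 95% interval of -0.10 to 0.0056, and it did not pass (adjusted p = 0.404).

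Cad (ENSMUSG00000013629, chr5:31357153-31380852 on the plus strand in mm9) encodes the cytosolic protein that carries the opening steps of pyrimidine synthesis, and it had the most counts of the 10. These were 34965 and 35515 normalized counts in WT_CTCF and 35263 and 35483 in MUT_CTCF libraries. Both MUT_CTCF values lay between the WT_CTCF values. The log2 fold change of 0.0054 (standard error 0.024) had the narrowest interval of the 10, from a change of -2.94% to 3.81% (adjusted p = 0.952).

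Dhodh (ENSMUSG00000031730, chr8:112115243-112132573 on the minus strand in mm9) encodes the enzyme of the inner mitochondrial membrane that oxidises dihydroorotate and hands electrons to ubiquinone. It had 2472 and 2491 normalized counts in WT_CTCF and 2318 and 2571 in MUT_CTCF libraries. The WT_CTCF libraries were close to each other and the MUT_CTCF libraries lay on either side of them. Its log2 fold change was -0.022 with a standard error of 0.059 (adjusted p = 0.918), with the widest interval of the 10, from a change of -9.19% to 6.86%.

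Umps (ENSMUSG00000022814, chr16:33954868-33967124 on the minus strand in mm9) encodes the enzyme that makes orotidine monophosphate and then uridine monophosphate. It had 8719 and 8867 normalized counts in WT_CTCF and 9141 and 8995 in MUT_CTCF libraries, without overlap. The log2 fold change was 0.045 with a standard error of 0.035 (adjusted p = 0.611), and its interval ran from a change of -1.73% to 8.24%. Umps shares 213 exon bases with Gm15829 on the opposite strand, which had 2 to 9 counts.

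Ctps (ENSMUSG00000028633, chr4:120212473-120242881 on the minus strand in mm9) encodes the glutamine-using enzyme that makes CTP from UTP. Its libraries had 7899 and 6997 normalized counts in WT_CTCF and 7519 and 7458 in MUT_CTCF libraries. The WT_CTCF libraries differed by 0.17 on the log2 scale, the largest difference between replicates among the 10 genes, and the MUT_CTCF libraries lay between them. The log2 fold change was 0.0078 with a standard error of 0.040 (adjusted p = 0.961). Ctps2, which encodes a second CTP synthase, was at a much lower level, and Ctps had 9.91 ± 0.879 times its level per length in WT_CTCF and 8.96 ± 0.447 times in MUT_CTCF mESCs (SD, n = 2, two-sided exact permutation p = 0.333).

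**Figure D3:**
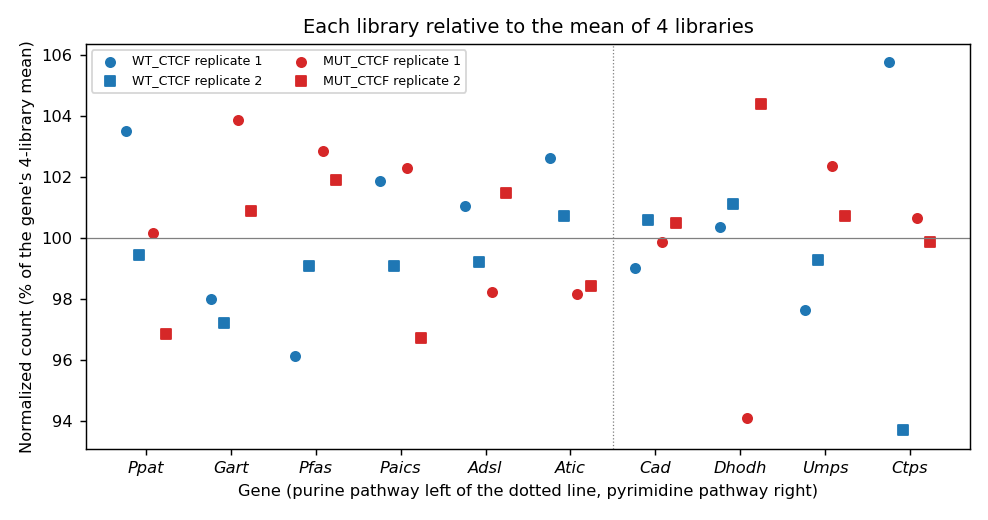
Normalized count of each gene in each library as a percent of that gene's mean over the 4 libraries, with WT_CTCF in blue, MUT_CTCF in red, circles for replicate 1 and squares for replicate 2. The points lie between 93.7% and 105.8%, both of which are the WT_CTCF libraries of Ctps.

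The difference between the lines was larger than both differences between replicates in 4 of the 10 genes, and the 2 lines did not overlap in 4, Gart, Pfas, Umps and Atic. The lines likewise did not overlap in 44.7% of all tested genes, and in 55.1% of the 3672 genes with at least the mean count of Dhodh. The median absolute log2 fold change was 0.032 over the 10 genes, 0.049 over those 3672 genes and 0.11 over all tested genes. Of the 3672 genes, 7.9% were called, so that a count of 0 among 10 genes lies near this background.

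The enzymes that feed the pathways and use their products were followed in 11 further lists, with 96 gene rows, of which 87 had enough counts to be tested. Of these, 2 were called higher and 1 lower in MUT_CTCF mESCs, or 3.45% beside 3.17% of all tested genes. Over the 87 genes the median log2 fold change was 0.013 and 48 values were above 0, and the medians of the 11 lists lay between -0.049, for nucleotide kinases, and 0.16, for formyl and folate donors. Both higher genes belong to the list of formyl and folate donors and work in mitochondria.

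Mthfd2, a dehydrogenase and cyclohydrolase of folate, had 3719 and 3604 counts in WT_CTCF and 4333 and 4313 in MUT_CTCF libraries. Its log2 fold change was 0.23 with a standard error of 0.047 (adjusted p = 0.000954). Mthfd1l, which releases formate for the cytosol, had 4141 and 4122 counts in WT_CTCF and 5189 and 4593 in MUT_CTCF libraries. Neither gene overlapped between the lines, and the log2 fold change of Mthfd1l was 0.24 with a standard error of 0.047 (adjusted p = 0.000821). Mthfd2 lost its call without WT_CTCF replicate 2 (log2 fold change 0.21, adjusted p = 0.0529). Both genes lost it without MUT_CTCF replicate 1 or 2, as every other gene of the table did, and the log2 fold change of Mthfd1l was then 0.16 or 0.31 and that of Mthfd2 0.24 or 0.23. Of the 8 tested genes of the list, 6 had log2 fold changes above 0. An unadjusted p under 0.05 was reached by 5 of the 8, 4 of them higher in MUT_CTCF mESCs, beside 15.3% of all tested genes. The other 6 genes of the list were not called, among them Mthfd1, which makes the formyl donor used by Gart and Atic in the cytosol. Mthfd1 was named after its values were seen, and had a log2 fold change of -0.039 (adjusted p = 0.553).

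The lower gene was Ak1, an adenylate kinase, with 5168 and 5038 counts in WT_CTCF and 4391 and 4504 in MUT_CTCF libraries. The lines did not overlap, and the log2 fold change was -0.20 with a standard error of 0.044 (adjusted p = 0.0027). It lost its call without WT_CTCF replicate 1 (-0.19, adjusted p = 0.0926) and without MUT_CTCF replicate 1 or 2 (-0.18 and -0.23). Ak1 shares 124 exon bases with Eng on the same strand. Without a filter on low counts, Mthfd1l, Mthfd2 and Ak1 had log2 fold changes of 0.24, 0.23 and -0.21, close to those above, with adjusted p = 0.225, 0.122 and 0.166.

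The list of PRPP synthesis, the substrate of Ppat and Umps, had 0 of 5 tested genes called. Prpsap2, a PRPP synthetase-associated protein, came nearest, with 2856 and 3249 counts in WT_CTCF and 3588 and 3310 in MUT_CTCF libraries without overlap. Its log2 fold change was 0.17 with a standard error of 0.054 (adjusted p = 0.0716), and the call depended on the setting. It was called with the replicate number as a block (adjusted p = 0.0228), with at least 10 reads in every library (adjusted p = 0.0362) and without WT_CTCF replicate 2 (log2 fold change 0.27, adjusted p = 0.0135). Without WT_CTCF replicate 1 the log2 fold change was 0.079, and over all 11 alternatives the adjusted p ran from 0.0135 to 0.737. Prps1, a PRPP synthetase, had a log2 fold change of 0.042. The study's methods count uniquely mapped reads, so reads that fit both Prps1 and the similar gene Prps1l3 may have been left out. Of the 5 genes that turn IMP into AMP and GMP, 0 were called. Impdh1, which opens the GMP branch, had -0.065, and Adssl1, of the AMP branch, had 0.53 from 90 to 153 counts per library (adjusted p = 0.547 and 0.259). Impdh2 and Adss, named after their values were seen, had higher levels, 373.9 and 36.4 CPM per kilobase against 32.5 for Impdh1 and 1.74 for Adssl1. Their log2 fold changes were -0.022 and -0.016 (adjusted p = 0.781 and 0.905). Ctps2 had 0.15 (adjusted p = 0.356).

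Glutamine and aspartate supply had 0 of 6 genes called, with a log2 fold change of 0.055 for the aspartate aminotransferase Got2. Deoxynucleotide synthesis had 0 of 8, with 0.087 for Rrm2, a subunit of ribonucleotide reductase, and -0.069 for Dctd, a deoxycytidylate deaminase. Nucleotide kinases other than Ak1 had 0 of 13 called, with -0.20 for Nme6 (adjusted p = 0.154). Nucleotide breakdown had 0 of 14 called, with 0.38 for Nt5c3, a pyrimidine nucleotidase with 273 to 406 counts, and 0.44 for Dpys, a dihydropyrimidinase with 158 to 243 counts. Of the genes named from these 4 lists other than Ak1, Rrm2 had the smallest adjusted p, 0.108.

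Salvage stands beside these pathways as the other source of nucleotides. Of 9 tested genes of purine salvage, 10 of pyrimidine salvage and 7 nucleoside transporters, 0 were called. Mtap, which recovers adenine, and the deoxycytidine kinase Dck had log2 fold changes of 0.095 and 0.093, the uridine phosphorylase Upp1 and the uridine kinase Uck2 (ENSMUSG00000026558) of 0.058 and 0.076, and the nucleoside transporters Slc29a2 and Slc29a3 of -0.13 and 0.10. Leaving out 1 library moved some of these, to between 0.029 and 0.16 for Mtap, -0.28 and 0.027 for Slc29a2, and 0.034 and 0.16 for Slc29a3. A second row of Uck2 (ENSMUSG00000053664, 93 exon bases) had 698 and 744 counts in WT_CTCF and 663 and 643 in MUT_CTCF libraries. Its log2 fold change went the other way, at -0.15 (adjusted p = 0.529). Hprt, which salvages hypoxanthine and guanine, was looked at after its values had been seen because it was nearly absent in every library. It had 26 and 25 counts in WT_CTCF and 17 and 24 in MUT_CTCF libraries, while Aprt, which salvages adenine, had 4680 and 4596 and 4441 and 4497. Per length this was 0.438 CPM per kilobase for Hprt over the 4 libraries, against 128.9 for Aprt and 38.8 for Ppat. The libraries of both lines were at this low level, with a log2 fold change of -0.32 and a standard error of 0.585 (adjusted p = 0.871). The labels and methods give no Hprt genotype of the cells.

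**Figure D4:**
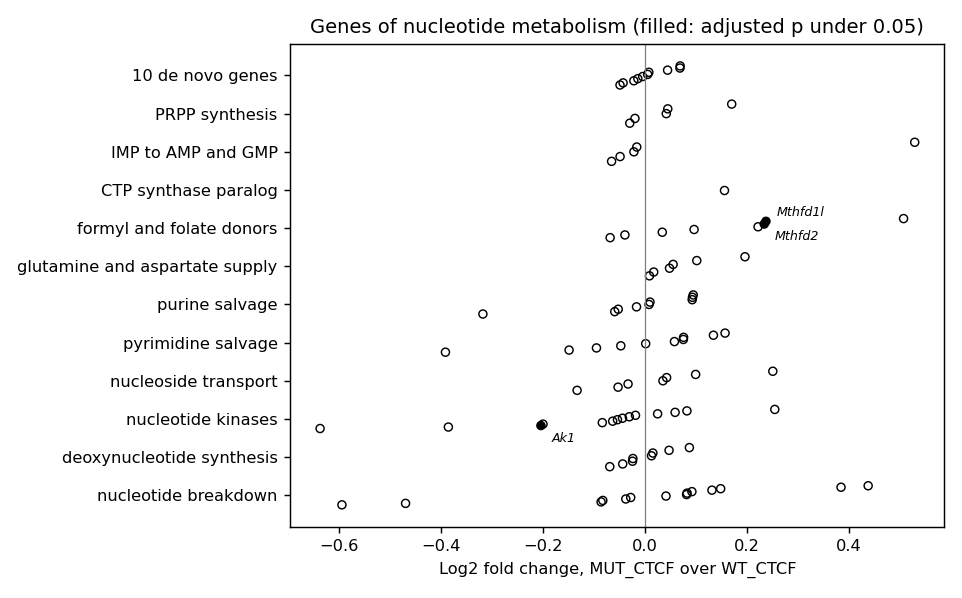
Log2 fold change of MUT_CTCF over WT_CTCF mESCs for each tested gene of the 10 de novo genes (top) and of the 11 further lists, with filled circles at an adjusted p under 0.05. Mthfd1l, Mthfd2 and Ak1 are the filled points, and the de novo genes lie between -0.049 and 0.069.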

How the data were processed

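RNA-seq counts of 2 WT_CTCF and 2 MUT_CTCF mESC libraries were used. Per the study's methods and the submitters' processing notes, the authors used Trim Galore 0.4.4 for trimming, STAR for alignment to mm9, and HTSeq 0.9.1 for the deposited counts per gene, which are not normalized. The strand setting and annotation version are not given in the sources used here. A deposited table of the authors' own edgeR comparison holds log2 fold changes and p-values and was not used.

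Gene names, places and exon lengths came from GENCODE M1 (NCBIM37, mm9), and promoter windows from RefSeq (GRCm38.p6). Of 127 genes written in lists, 2 (Lacc1 and Sox1) were not matched. Genes were filtered by edgeR's filterByExpr (minimum 10 counts), scaled by TMM and tested with glmQLFit and glmQLFTest of edgeR 4.0.16 (R 4.3.3) on the line alone. The fit was run on simulated counts with the same spread setting in every gene and with changes larger than those of the 10 genes. It therefore does not show how well changes as small as theirs are found. A 95% interval is the log2 fold change plus or minus its standard error times the t quantile. The standard error was worked back from the F value of the test, with degrees of freedom that include those shared over all genes. Named were the 10 genes and, in each further list, all genes at an adjusted p under 0.05, or the 2 with the smallest p where fewer than 2 passed. One gene that this rule names is not reported here. Single values were compared by an exact permutation test over libraries, of which 14 were run and none could pass. The genes and lists were chosen with earlier results of these data known. The comparison was repeated with DESeq2 1.42.0, with the exact test of edgeR, with scaling by DESeq2's size factors or by library size only, with no filter or a minimum of 10 reads in all 4 libraries, with the replicate number as a block, and without each library in turn. Counting error and the spread of 2 libraries per line limit precision.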

Additional observations from a re-analysis of the deposited data

How the results depend on the processing

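Among the 11 alternatives, none of the 10 de novo genes passed an adjusted p of 0.05 in those that kept all 4 libraries. The smallest adjusted p was 0.0971, with library size only, where 412 of 16264 tested genes were called. Without a filter 29 of 23739 tested genes were called, so a count of 0 there says little about the 10. Nor can the fits without 1 library decide this, because they leave 1 sample in a line. Where 1 library was left out, the lone sample was assumed to vary like the other line. The signs of 5 of the 10 genes, and of Slc29a2, were not stable. Adsl was 0.0080 with library size only, and without 1 library the log2 fold changes ran from -0.055 to 0.024 for Paics, from -0.029 to 0.019 for Adsl, from -0.0062 to 0.016 for Cad, from -0.10 to 0.051 for Dhodh, from -0.078 to 0.097 for Ctps and from -0.28 to 0.027 for Slc29a2. The ends for Ctps came from leaving out WT_CTCF replicate 1 (0.097) and replicate 2 (-0.078).

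Without a filter, 0 formyl and folate donors and 0 nucleotide kinases were called, and 29 genes in all against 515. Prpsap2 passed with at least 10 reads in every library, in the replicate block and without WT_CTCF replicate 2, giving 1 called PRPP synthesis gene each time, against 0 to 1 over the libraries left out. Leaving out 1 library gave 0 to 2 called formyl and folate donors and 0 to 1 lower nucleotide kinases, with 0 to 1 kinases at the study's criterion. Without either MUT_CTCF library no gene of the table was called, so the lost calls of Mthfd1l, Mthfd2 and Ak1 there say nothing about them in particular. Median log2 fold changes without 1 library ran from 0.011 to 0.053 for PRPP synthesis, from -0.029 to -0.013 for IMP to AMP and GMP (-0.0092 with library size only), from 0.044 to 0.18 for formyl and folate donors, from -0.034 to 0.0078 for purine salvage, from -0.033 to 0.0066 for deoxynucleotide synthesis and from 0.00058 to 0.037 for nucleotide breakdown. With the longest transcript as gene length, 8 places in the order of levels changed, and 0 in any single library.

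Same-numbered libraries did not deviate together over all genes taken at once (correlation -0.019 over 16264 genes). The labels give only a replicate number, and whether same-numbered libraries share a batch that acts on some genes was not tested. The replicate block called 698 genes, against 515, and none of the 10.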
